A study of Mus musculus with 40 samples.

Results

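Transcripts of 10 genes of tendon and of the small proteoglycans that coat collagen were followed across extensor digitorum longus (EDL) muscles, a fast muscle of the mouse hindlimb that ends in long tendons. The genes were taken by name: Fmod, Chad, Tnmd, Comp, Scx, Thbs4, Lum, Dcn, Bgn and Prelp. All 10 were found among the 22844 genes of the deposited tables, and all 10 were among the 13543 genes expressed highly enough to be tested. The study compared mice that lack Tsc1 in skeletal muscle fibers (TSCmKO), in which the growth-promoting kinase complex mTORC1 stays active in those fibers, with littermate controls (CON). Controls carried the Tsc1fl/fl alleles without Cre recombinase, and both genotypes carried the floxed Tsc1tm1Djk/J strain background. Mice were 3 or 9 months old and received vehicle or rapamycin, an inhibitor of mTORC1 that acts on the whole animal, by intraperitoneal injection for 3 days (groups with +RM). The labels and the study's text give different doses, so the dose is uncertain. Each of the 8 groups held 5 libraries, 40 in all, from poly(A) RNA of whole EDL lysates.

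Tendon is built by tenocytes, fibroblast-like cells that deposit parallel collagen fibrils. Scx encodes scleraxis, a basic helix-loop-helix transcription factor of tendon progenitors and tenocytes, and Tnmd encodes tenomodulin, a membrane protein of mature tenocytes that depends on scleraxis in developing tendon. Comp and Thbs4 encode thrombospondins of the tendon and cartilage matrix that bind collagens. Fmod (fibromodulin), Lum (lumican), Dcn (decorin), Bgn (biglycan), Prelp and Chad (chondroadherin) encode leucine-rich repeat proteins of the matrix. Decorin, biglycan, fibromodulin and lumican bind collagen and regulate fibril assembly and diameter. Decorin and biglycan are also made by the connective tissue fibroblasts within muscle, whereas tenomodulin and chondroadherin are largely markers of tendon and cartilage.

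In the GENCODE M21 annotation of GRCm38, Dcn and Lum are neighbours on chromosome 10, 47.0 kb apart with 0 protein-coding genes between them, and Fmod and Prelp lie 115.8 kb apart on chromosome 1, again with 0 between them. Fmod is at chr1:134037254-134048277, Chad at chr11:94565047-94569127, Tnmd at chrX:133850980-133865577 and Thbs4 at chr13:92751590-92794818. Scx, at chr15:76457452-76459458, overlaps Bop1 on the opposite strand. Chad overlaps Acsf2 on the opposite strand, and Prelp overlaps the antisense gene Gm15851. Counting used the strand of the reads.

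The promoter sequences of 4 genes that varied together between libraries are shown because the 10 genes include scleraxis, a DNA-binding protein whose class recognises a short motif that can be looked for in them. Each line gives the 250 bases before the RefSeq start of the gene in GRCm38.p6, written in the direction of transcription. Capitals mark E-boxes (CANNTG on either strand), the motif class bound by basic helix-loop-helix proteins such as scleraxis.
Fmod, chr1:134037004-134037253, plus strand: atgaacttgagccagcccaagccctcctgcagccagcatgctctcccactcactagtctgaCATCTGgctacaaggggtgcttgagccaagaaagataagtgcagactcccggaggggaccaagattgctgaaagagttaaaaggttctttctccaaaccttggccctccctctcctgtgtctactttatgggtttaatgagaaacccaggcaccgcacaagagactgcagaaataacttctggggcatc
Chad, chr11:94564797-94565046, plus strand: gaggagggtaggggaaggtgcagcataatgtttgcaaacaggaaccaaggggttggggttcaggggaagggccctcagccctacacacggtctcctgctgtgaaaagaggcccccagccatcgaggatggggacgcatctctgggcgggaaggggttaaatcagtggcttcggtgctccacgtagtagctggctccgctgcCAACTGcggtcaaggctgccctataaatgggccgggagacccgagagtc
Tnmd, chrX:133850758-133851007, plus strand: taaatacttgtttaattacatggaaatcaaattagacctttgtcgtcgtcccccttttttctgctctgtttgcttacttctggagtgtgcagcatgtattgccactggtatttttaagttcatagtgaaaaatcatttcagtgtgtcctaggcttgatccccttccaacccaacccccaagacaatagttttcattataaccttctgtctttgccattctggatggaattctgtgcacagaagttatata
Thbs4, chr13:92794819-92795068, minus strand: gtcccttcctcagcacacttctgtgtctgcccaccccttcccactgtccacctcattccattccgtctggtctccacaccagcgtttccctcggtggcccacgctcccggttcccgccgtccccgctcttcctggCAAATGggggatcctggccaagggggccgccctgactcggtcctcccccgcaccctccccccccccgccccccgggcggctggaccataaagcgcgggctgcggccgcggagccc

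An E-box was found once each in the windows of Fmod, Chad, Thbs4 and Bgn and in 0 places in those of Tnmd and Prelp. This 6-letter pattern was common: 66.2% of the 32817 promoter windows of the same length held it. The narrower form CAGATG (in Fmod as its reverse complement, and counted among the E-boxes) was present in 14.5% of all windows and, of the 6 genes with an entry, in Fmod alone. The TATAAA box was found in Chad (12.4% of all windows), and TGANTCA, the AP-1 motif, in 0 of the 6 genes (6.75% of all windows). These are letter matches and not measured binding. Comp, Scx, Lum and Dcn were without an entry in the table used here.

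Total counts ran from 8883870 to 35224669 per library. Tsc1 itself separated the genotypes, with at least 51.3 CPM (counts scaled to a common library total) in CON libraries and at most 35.8 CPM in TSCmKO libraries. All values below are CPM scaled by the TMM method unless TPM, which is also scaled by transcript length, is named. Fold changes and p-values came from edgeR's quasi-likelihood test over all 13543 genes, adjusted by the Benjamini-Hochberg method with a threshold of 0.05. By the labels, inserts of the 3-month libraries averaged 175 to 239 nt and those of the 9-month libraries 223 to 308 nt, and the counts of genes that passed with age are also given with insert size as a term. In whole muscle, fewer cells of a type and less RNA per cell cannot be told apart.

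Some libraries were the lowest or the highest of their group for most of the 10 genes. In 3mCON, replicate 5 had the lowest value for 10 of 10 genes and replicate 1 the highest for 9, although no gene of replicate 5 was far from the rest by Dixon's test. In 3mCON+RM, replicate 2 was the lowest for 9 of 10. In 3mTSCmKO, replicate 2 was the lowest for 10 of 10 and replicate 3 the highest for 8. In 3mTSCmKO+RM, replicate 1 was the lowest for 9, and in 9mTSCmKO, replicate 4 was the lowest for 8. In 9mCON, replicate 5 was the highest for 8 of 10, with Fmod at 277 CPM against a group median of 46.9 CPM. Results on the 10 genes that rest on 9mCON replicate 5 are given with and without it, and the counts also without it together with 3mCON replicate 5 and 3mCON+RM replicate 2. Shares of all genes tested are those of the fit with all libraries unless another fit is named.

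**Figure D1:**
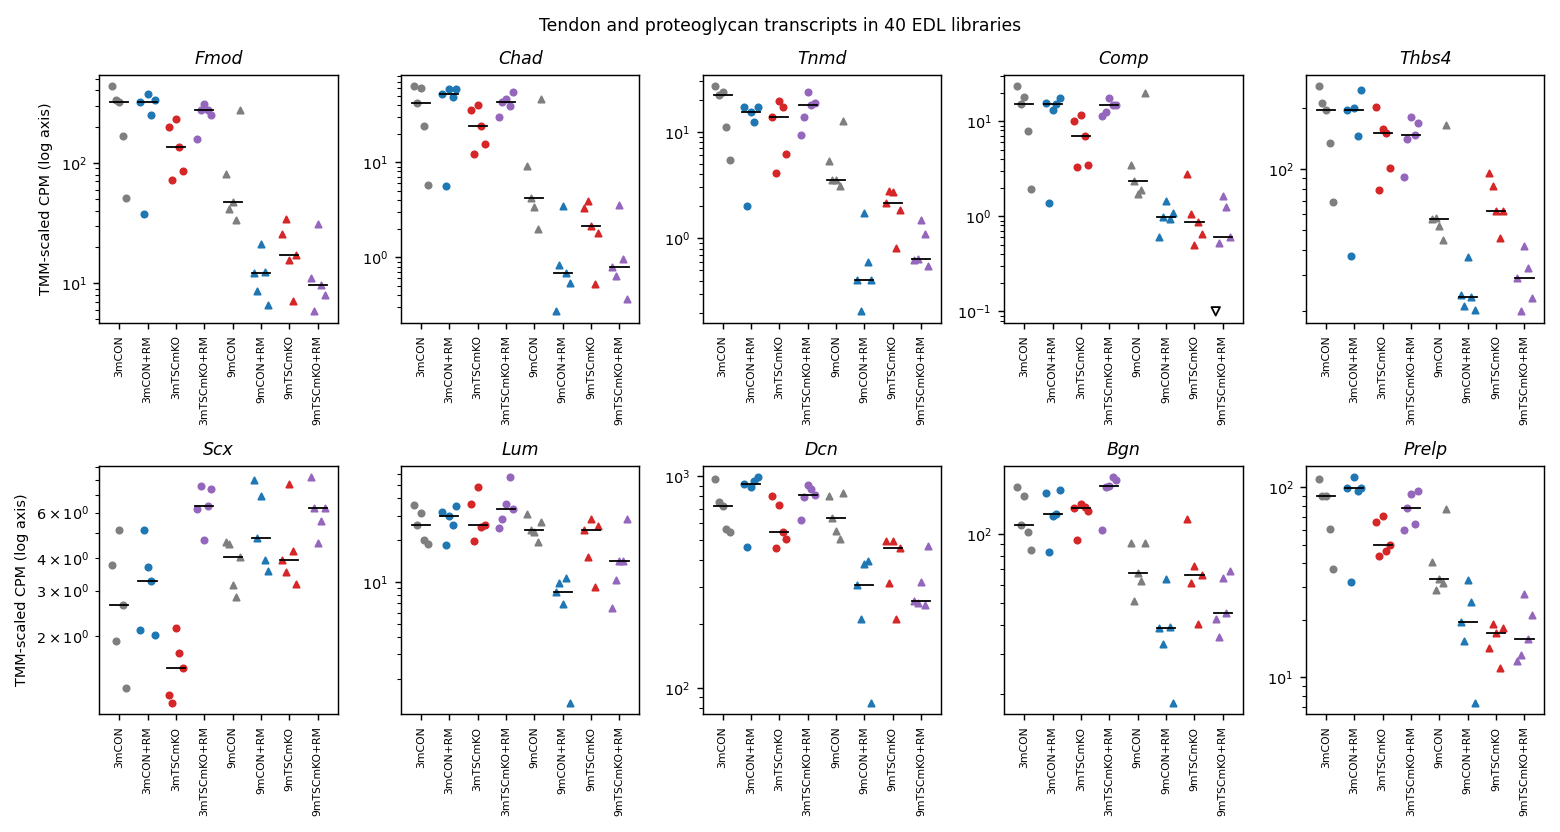
TMM-scaled CPM on log axes for the 10 genes in each of the 40 libraries, by group, with circles for 3 months and triangles for 9 months. Lines are group medians, colours repeat by genotype and treatment at both ages, and the open triangle is the 1 library with 0 counts of Comp. Fmod, Chad, Tnmd and Comp span the widest ranges, 9mCON replicate 5 sits far above its group for these genes, and Scx follows a pattern of its own.

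Levels between genes were compared in TPM. Dcn was the highest of the 10 in all 8 groups, from 246.7 ± 122.6 TPM (SD, n = 5) in 9mCON+RM to 819.8 ± 228.2 TPM in 3mCON+RM, and its range over libraries was separate from that of the next gene in every group. Below Dcn, the order mostly could not be settled, since neighbouring genes overlapped in their ranges. In 3mCON the next levels were Fmod with 167 ± 99.0 TPM, Bgn with 153 ± 44.6 TPM and Thbs4 with 102 ± 43.9 TPM, and Scx was the lowest with 5.36 ± 2.86 TPM. In 9mTSCmKO, Scx at 8.09 ± 2.71 TPM stood above Tnmd at 2.84 ± 1.10 TPM with separate ranges, whereas in 3mCON Tnmd at 24.9 ± 13.1 TPM and Scx had the opposite order of means with overlapping ranges.

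In 9-month-old controls given rapamycin for 3 days, 9 of the 10 genes differed from controls given vehicle, or 6 when 9mCON replicate 5 was left out. The comparison asks what mTORC1 inhibition does in muscle with an intact Tsc1 gene. All 9 were lower in 9mCON+RM than in 9mCON and Scx did not pass the test (adjusted p = 0.268). Over all genes tested, 11.8% passed in this comparison, and 6.82% were lower. The median log2 fold change was -1.66 over the 10 genes and -0.02 over all genes tested. The ranges of both groups did not overlap for 6 genes (Fmod, Tnmd, Comp, Thbs4, Lum and Dcn), against 3.74% of all genes tested with lower, non-overlapping values.

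Tnmd, the marker of mature tenocytes, was at 5.32, 3.55, 3.49, 3.11 and 12.6 CPM in 9mCON replicates 1 to 5. In 9mCON+RM it was at 0.405, 0.206, 1.74, 0.602 and 0.405 CPM, from 4 to 24 counts per library. Every treated library was below every control library, and the fall was 8.76-fold (log2 fold change -3.13 ± 0.63 SE, edgeR adjusted p = 0.00105). Fmod was at 80.7, 41.3, 46.9, 33.4 and 277 CPM in 9mCON and at 12, 8.64, 21.2, 12.4 and 6.55 CPM in 9mCON+RM. It fell 7.93-fold (log2 fold change -2.99 ± 0.63 SE, edgeR adjusted p = 0.00172), again with no overlap. Chad fell from 9.09, 4.23, 3.41, 1.97 and 46.1 CPM to 0.270, 0.823, 3.47, 0.688 and 0.540 CPM, and here the highest treated library lay within the control range (log2 fold change -3.53 ± 0.84 SE, edgeR adjusted p = 0.00531).

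The thrombospondins were lower too. Comp was at 3.42, 2.34, 1.71, 1.91 and 19.8 CPM in 9mCON and at 0.608, 0.977, 1.45, 0.946 and 1.08 CPM in 9mCON+RM (log2 fold change -2.56 ± 0.72 SE, edgeR adjusted p = 0.0177). Thbs4 was at 56.9, 57.7, 52.7, 44.9 and 166 CPM in 9mCON and at 23.9, 21.3, 36.8, 23.5 and 20.2 CPM in 9mCON+RM. Its 4 controls other than replicate 5 were close together and all above the treated libraries (log2 fold change -1.59 ± 0.38 SE, edgeR adjusted p = 0.00496).

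Among the collagen-binding proteoglycans, Lum was at 30.9, 23.6, 22.9, 19.3 and 26.8 CPM in 9mCON and at 8.44, 9.82, 6.95, 10.7 and 1.35 CPM in 9mCON+RM, 3.32-fold lower (log2 fold change -1.73 ± 0.36 SE, edgeR adjusted p = 0.00155). Dcn was at 806, 635, 549, 504 and 835 CPM in 9mCON against 307, 210, 382, 395 and 85.0 CPM in 9mCON+RM, 2.41-fold lower (log2 fold change -1.27 ± 0.28 SE, edgeR adjusted p = 0.00212). For both, control replicate 5 was within the range of its group or near its edge. Treated replicate 5 was the lowest library for Lum, Dcn, Bgn and Prelp. Bgn and Prelp were lower with overlapping groups, Bgn by 0.91 on the log2 scale (SE 0.25, edgeR adjusted p = 0.0135) and Prelp by 1.08 (SE 0.33, edgeR adjusted p = 0.0259).

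Without 9mCON replicate 5, 6 of the 9 genes remained lower by the same test: Fmod, Tnmd, Thbs4, Lum, Dcn and Bgn. The log2 fold change was then -2.06 for Fmod, -2.58 for Tnmd and -1.08 for Thbs4, and that of Lum, -1.70, hardly moved. Chad (log2 fold change -2.04, adjusted p = 0.0862), Comp (-1.22, adjusted p = 0.256) and Prelp (-0.75, adjusted p = 0.135) no longer passed. Leaving out the 3 libraries named above together left 7 genes, with Chad back among them. Bgn also failed without 9mCON+RM replicate 5 (adjusted p = 0.0556), and Prelp without 9mCON+RM replicate 1, 2 or 5 (adjusted p = 0.0541, 0.0762 and 0.0892) or without the filter on low counts (0.0559). With limma on log2(TPM + 1) Comp did not pass (log2 fold change -1.33, adjusted p = 0.0951) and Chad passed at a smaller change (-2.10, adjusted p = 0.0253), and on log2(TPM + 0.1) Comp was at -1.85 (adjusted p = 0.0902). A fit of these 2 groups alone called 5 of the 10 and not Chad, Comp, Bgn or Prelp.

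**Figure D2:**
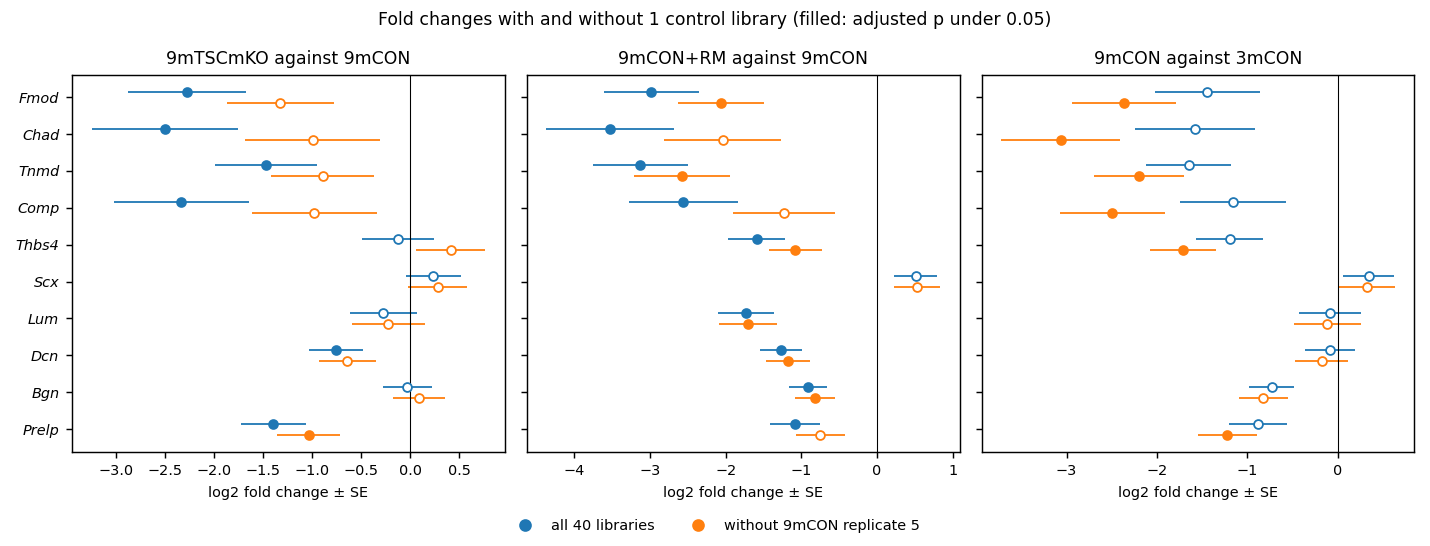
Log2 fold changes with standard errors (edgeR) for the 10 genes in 3 comparisons that share the 9mCON libraries, with all 40 libraries (blue) and without 9mCON replicate 5 (orange). Filled points passed an adjusted p of 0.05: 6 against 1 for genotype at 9 months, 9 against 6 for rapamycin in CON and 0 against 6 for age in CON.

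The same treatment at 3 months called 0 of the 10 genes (0.679% of all genes tested passed). By an unadjusted p under 0.05 the count was also 0, and DESeq2 called 0 as well. Fmod was at 438, 331, 320, 167 and 51.4 CPM in 3mCON and at 321, 37.6, 377, 251 and 333 CPM in 3mCON+RM, so that both groups covered the same range, each with 1 low library. Adjusted p-values of the 10 genes ran from 0.880 to 0.998. The difference between the rapamycin effects at both ages in controls was tested directly. It passed for Dcn alone (log2 difference -1.52 ± 0.39 SE, edgeR adjusted p = 0.0466, 0.938% of all genes tested passed). An unadjusted p under 0.05 was reached by 9 of the 10 genes, and 5 passed with DESeq2. The call on Dcn was near the threshold, and leaving out a single library ended it in 23 of 40 fits, with adjusted p-values from 0.0146 to 0.128 over all 40. It also ended without the filter on low counts (0.0863), in a fit of the compared groups alone (0.119) and without the 3 libraries named above (0.0873). Without 3mCON+RM replicate 2, 6 genes passed, and without 9mCON replicate 5, 0 did. The share of all genes tested is not given for these fits.

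In TSCmKO at 9 months, Thbs4 was lower with rapamycin and was the 1 gene of the 10 that passed (32.6% of all genes tested passed, 16.8% were lower). Thbs4 was at 95.1, 82.5, 62.0, 45.7 and 62.3 CPM in 9mTSCmKO and at 29.1, 19.9, 41.7, 32.5 and 23.1 CPM in 9mTSCmKO+RM. The groups did not overlap (log2 fold change -1.25 ± 0.38 SE, edgeR adjusted p = 0.0103), as for 7.15% of all genes tested with lower values, and the call held in 40 of 40 fits that left out 1 library. For Fmod, Chad, Tnmd and Comp, the rapamycin comparison in TSCmKO started from low vehicle values and gave adjusted p-values of 0.468, 0.505, 0.141 and 0.673. Without 9mTSCmKO replicate 3, Scx passed as well (log2 fold change 0.72, adjusted p = 0.0478), and without replicate 4, Bgn did (-0.64, adjusted p = 0.0448). Tnmd passed in a fit of the compared groups alone (-1.22, adjusted p = 0.0387) and without the 3 libraries named above (-1.22, adjusted p = 0.0424). The rapamycin effects in both genotypes at 9 months were not shown to differ for any of the 10 genes (0 called by edgeR, 6 at an unadjusted p under 0.05, 1, Fmod, by DESeq2, 4.87% of all genes tested passed). Under rapamycin the genotypes also had 0 called genes at 9 months (1 at an unadjusted p under 0.05, 1 by DESeq2, 20.6% of all genes tested passed). Lum came nearest to the threshold there, at 14.7 ± 8.27 CPM (SD, n = 5) in 9mTSCmKO+RM and 7.44 ± 3.69 CPM in 9mCON+RM (adjusted p = 0.0507), and leaving out a single library moved it past the threshold in 11 of 40 fits. The fit with the lowest value, without 9mTSCmKO+RM replicate 1, gave an adjusted p of 0.0181. Lum also passed with upper-quartile scaling (0.0470), DESeq2 (0.0393) and limma on TPM (0.0284 and 0.0266).

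Loss of Tsc1 in muscle fibers at 9 months went with lower values of 6 of the 10 genes (Fmod, Chad, Tnmd, Comp, Dcn and Prelp), while 37.9% of all genes tested passed and 18.9% were lower. The median log2 fold change was -1.08 over the 10 genes and -0.02 over all genes tested. Prelp was at 14.2, 19.2, 17.2, 11.1 and 18.2 CPM in 9mTSCmKO against 40.3, 28.7, 32.9, 31.4 and 76.8 CPM in 9mCON. Its groups did not overlap (log2 fold change -1.40 ± 0.33 SE, edgeR adjusted p = 0.0010), and it was the 1 gene of the 6 whose call held in 40 of 40 fits without single libraries. Dcn was at 495, 311, 492, 211 and 458 CPM in 9mTSCmKO, all below the lowest 9mCON library (log2 fold change -0.76 ± 0.27 SE, edgeR adjusted p = 0.0270). Tnmd, at 2.13, 2.77, 2.74, 0.808 and 1.84 CPM, was also below all 9mCON libraries (log2 fold change -1.47 ± 0.52 SE, edgeR adjusted p = 0.0246). Lower non-overlapping values were found for 7.2% of all genes tested. On TPM, limma called 2 of the 6 genes, Fmod and Prelp, with either pseudocount. With log2(TPM + 1) the adjusted p was 0.0892 for Chad, 0.0835 for Tnmd, 0.0569 for Comp and 0.0591 for Dcn, and the log2 fold changes of Chad and Comp were -1.34 and -1.23. With log2(TPM + 0.1) they were -1.64 and -1.70, and the 4 adjusted p-values were 0.0576 to 0.0891.

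Fmod was at 25.5, 33.8, 15.7, 7.10 and 17.2 CPM in 9mTSCmKO, and just 1 of these libraries, replicate 2, reached the control range. The fall was 4.83-fold (log2 fold change -2.27 ± 0.60 SE, edgeR adjusted p = 0.00323). Chad and Comp fell by 2.50 and 2.33 on the log2 scale (SE 0.75 and 0.69, edgeR adjusted p = 0.00844 and 0.00738). The genotype and rapamycin comparisons share the 9mCON libraries, and these sizes depended on 9mCON replicate 5. Without it, the log2 fold changes were -1.33 for Fmod, -0.99 for Chad, -0.89 for Tnmd and -0.98 for Comp, and only Prelp of the 10 genes passed (-1.04, adjusted p = 0.0125). Adjusted p-values were then 0.0598, 0.276, 0.196 and 0.248 for those 4 genes and 0.0851 for Dcn. With the 3 libraries left out together, Fmod and Prelp passed. The call on Dcn also ended without 9mCON replicate 1, 9mTSCmKO replicate 2 or 9mTSCmKO replicate 4 (adjusted p = 0.0725, 0.0636 and 0.0906), and that on Tnmd without 9mTSCmKO replicate 4 (0.0661).

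The other 4 genes gave no call between genotypes at 9 months. Bgn was at 71.1 ± 27.6 CPM (SD, n = 5) in 9mTSCmKO and 72.5 ± 18.0 CPM in 9mCON, Lum at 20.4 ± 7.99 and 24.7 ± 4.36 CPM, Thbs4 at 69.5 ± 19.4 and 75.6 ± 50.6 CPM, and Scx at 4.53 ± 1.82 and 3.83 ± 0.798 CPM. At 3 months Scx was the single gene that differed between genotypes, as described with the other Scx values. The difference of genotype effects between ages passed for 0 of the 10 genes (1 at an unadjusted p under 0.05, 0 with DESeq2, 0 with insert size as a term, 4.94% of all genes tested passed), but Scx passed without 3mCON replicate 5 (log2 difference 1.36, adjusted p = 0.0446) and without the 3 libraries named above (1.39, adjusted p = 0.0476).

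Between 3 and 9 months, 8 of the 10 genes differed in TSCmKO mice. Of these, 7 were lower at 9 than at 3 months (Fmod, Chad, Tnmd, Comp, Thbs4, Bgn and Prelp) and Scx was higher, while 37.4% of all genes tested passed, 18.3% as lower and 19.1% as higher values. Dcn and Lum did not pass (adjusted p = 0.0672 and 0.167). Chad was at 35.0, 12.1, 40.2, 24.2 and 15.6 CPM in 3mTSCmKO and at 3.33, 3.88, 2.12, 0.519 and 1.79 CPM in 9mTSCmKO, 10.9-fold lower (log2 fold change -3.45 ± 0.75 SE, edgeR adjusted p = 0.000642). Fmod fell 7.30-fold from 200, 72.0, 232, 135 and 85.9 CPM (log2 fold change -2.87 ± 0.61 SE, edgeR adjusted p = 0.000524). Tnmd, at 13.8, 4.12, 19.5, 17.1 and 6.12 CPM in 3mTSCmKO, fell 5.91-fold, and Comp, at 10.1, 3.33, 11.7, 7.07 and 3.49 CPM, fell 6-fold. For these 4 genes, for Prelp and for Scx the ages did not overlap, and the calls held in 40 of 40 fits without single libraries. Non-overlap was seen in 18.6% of all genes tested.

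Prelp fell by 1.78 on the log2 scale (SE 0.33, edgeR adjusted p = 8.88e-05), Bgn by 0.79 (SE 0.25, edgeR adjusted p = 0.0112) and Thbs4 by 0.98 (SE 0.37, edgeR adjusted p = 0.0346). The call on Thbs4 ended without any 1 of 6 libraries, replicates 1, 3 and 4 of 3mTSCmKO and replicates 3, 4 and 5 of 9mTSCmKO, with an adjusted p of up to 0.107. It also ended with insert size as a term, where the log2 fold change was larger (-1.33, adjusted p = 0.0815) and 7 of the 10 genes passed. Without the filter on low counts the adjusted p for Thbs4 was 0.05002, and with limma on log2(TPM + 1) and log2(TPM + 0.1) it was 0.0643 and 0.0739. Dcn passed without 9mCON+RM replicate 5 (log2 fold change -0.62, adjusted p = 0.0303).

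In controls the count with age was 0 of 10 (6 at an unadjusted p under 0.05, 2, Tnmd and Thbs4, with DESeq2, 0 with insert size as a term, 1.02% of all genes tested passed). That share belongs to the fit with all libraries. Shares for the fits without libraries below are not given, so their counts stand without a background. Thbs4 was at 257, 212, 195, 134 and 68.6 CPM in 3mCON and at 56.9, 57.7, 52.7, 44.9 and 166 CPM in 9mCON, so that 4 of the 9-month libraries were below all 3-month libraries and replicate 5 was within their range (adjusted p = 0.0894). Chad, at 63.7, 42.5, 60.7, 24.1 and 5.83 CPM in 3mCON, likewise had 1 low library at 3 months and 1 high library at 9 months (adjusted p = 0.204). Without 9mCON replicate 5 alone, 6 genes were lower at 9 months: Fmod (log2 fold change -2.37, adjusted p = 0.0161), Chad (-3.07, 0.00771), Tnmd (-2.20, 0.0110), Comp (-2.49, 0.0128), Thbs4 (-1.71, 0.00750) and Prelp (-1.22, 0.0239). Leaving out 3mCON replicate 5 alone let Tnmd and Thbs4 pass (adjusted p = 0.0386 and 0.0474), and leaving out 3mCON+RM replicate 2 let Tnmd pass (0.0444). Without all 3 libraries 7 genes passed, Bgn being added. Dcn and Lum passed in neither fit (adjusted p = 0.908 and 0.924 with all libraries), with 707 ± 172 CPM and 666 ± 149 CPM for Dcn and 26.3 ± 7.19 CPM and 24.7 ± 4.36 CPM for Lum in all 5 libraries of 3mCON and 9mCON.

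Scx, the transcription factor of the group, was called in comparisons that involved 3-month TSCmKO groups. It was at 3.75, 1.91, 5.12, 2.65 and 1.27 CPM in 3mCON and at 1.19, 1.11, 2.16, 1.73 and 1.51 CPM in 3mTSCmKO, where it was lower (log2 fold change -0.96 ± 0.30 SE, edgeR adjusted p = 0.0196, 1 of 10 genes, where 19.8% of all genes tested passed and 8.32% were lower). The groups overlapped, and the call ended without 3mCON replicate 1 or 3 or 3mTSCmKO replicate 1 or 2, with adjusted p-values of 0.0579, 0.150, 0.0532 and 0.0579. Without the 3 libraries named above, Comp was also lower in 3mTSCmKO (log2 fold change -1.16, adjusted p = 0.0226). In 3-month-old TSCmKO mice given rapamycin, Scx was at 6.21, 7.56, 4.69, 6.36 and 7.41 CPM. All 5 treated libraries were above all 5 untreated ones, as for 9.53% of all genes tested, and the rise was 4.12-fold (log2 fold change 2.04 ± 0.29 SE, edgeR adjusted p = 1.46e-06). Scx was the 1 gene of the 10 called in this comparison, in which 23.6% of all genes tested passed and 10.6% were higher, and the call held in 40 of 40 fits without single libraries, with a highest adjusted p of 1.27e-05. In a fit of these 2 groups alone Comp (log2 fold change 1.0, adjusted p = 0.0389) and Prelp (0.50, adjusted p = 0.0314) were called as well, and without the 3 libraries named above Comp was (adjusted p = 0.0336).

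In 3mCON+RM, Scx was at 2.12, 5.13, 3.71, 3.28 and 2.02 CPM (adjusted p = 0.987 against 3mCON). The rapamycin effect differed between genotypes at 3 months (log2 difference 1.96 ± 0.41 SE, edgeR adjusted p = 0.00367, 3.45% of all genes tested passed). That difference passed in 40 of 40 fits that left out 1 library. Under rapamycin, 3mTSCmKO+RM was above 3mCON+RM (log2 fold change 1.0 ± 0.28 SE, edgeR adjusted p = 0.0158, 10% of all genes tested passed and 5.67% were higher) with overlapping ranges, a call that ended without 3mCON+RM replicate 1 or 5 (adjusted p = 0.0567 and 0.0586). With age, Scx rose in TSCmKO from the 3-month values to 3.95, 3.53, 7.71, 4.27 and 3.19 CPM at 9 months (log2 fold change 1.53 ± 0.30 SE, edgeR adjusted p = 0.00012). The rise came while Tnmd, Fmod and Chad fell between the same groups. At 9 months Scx averaged 3.83 ± 0.798 CPM (SD, n = 5 here and below) in 9mCON and passed in none of the comparisons among 9-month groups. Its mean was 5.46 ± 1.94 CPM with rapamycin in controls. In TSCmKO it was 4.53 ± 1.82 CPM with vehicle and 6.16 ± 1.33 CPM with rapamycin. Counts of Scx were low, with 15 to 124 per library in 3mCON and 17 to 54 in 3mTSCmKO.

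The spread within groups was shared among the genes. After the group means were removed on the log2 scale, Fmod, Chad, Tnmd, Comp and Thbs4 correlated with each other at r = 0.85 to 0.95 over the 40 libraries (10 pairs). Lum, Dcn, Bgn and Prelp correlated at r = 0.65 to 0.86 (6 pairs), and pairs across both sets at 0.36 to 0.87. Prelp was the proteoglycan closest to the first set, with r = 0.87 to Fmod. Scx stood outside, with r = -0.004 to 0.21 to the other 9 genes. These values are descriptions, since all genes of a library share its RNA, its depth and its preparation.

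**Figure D3:**
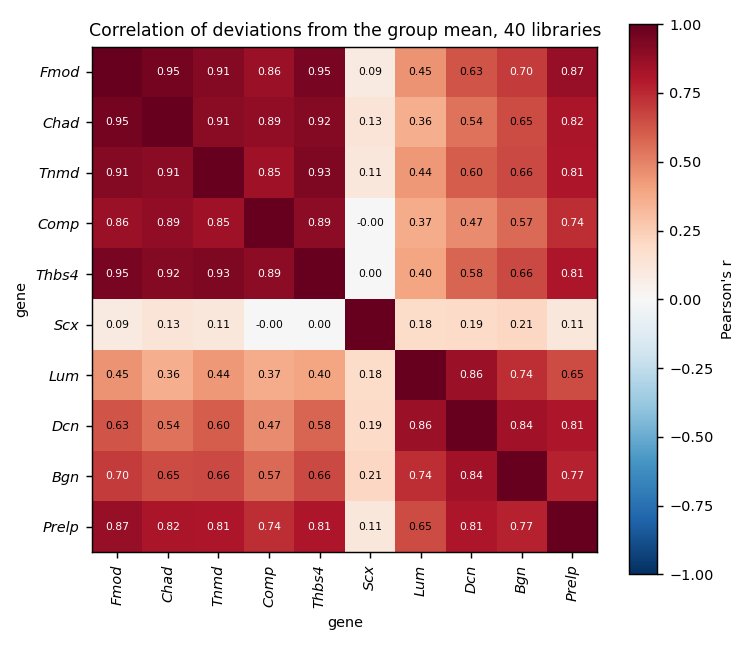
Pearson's r between genes over 40 libraries, on log2 CPM after removal of each group's mean. Fmod, Chad, Tnmd, Comp and Thbs4 form a block at 0.85 to 0.95, Lum, Dcn, Bgn and Prelp a looser block at 0.65 to 0.86, and Scx stays between -0.004 and 0.21.

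By the same measure, over 12636 genes and with the 10 genes themselves left out of the ranking, the genes most like Fmod were Tnc, which encodes the tendon matrix protein tenascin-C (r = 0.92), Cpxm2 (0.89) and Colec12 (0.87). Among genes outside the 10, Tnc was also the closest to Chad (0.90) and Thbs4 (0.93) and Cpxm2 the closest to Tnmd (0.91). Within the 10, Fmod and Chad (0.95) and Fmod and Thbs4 (0.95) were closer than these pairs, and Tnmd was closer to Thbs4 (0.93) than to Cpxm2. Comp was closest to 1500015O10Rik (0.90) and Wif1, a secreted Wnt inhibitor (0.88). The closest genes to Dcn were Serpinf1 (0.95) and Ogn, another leucine-rich proteoglycan (0.95). For Lum they were Efemp1 (0.87), Pdpn (0.87) and Dpt (0.86), for Bgn Fstl1 (0.91) and the collagen gene Col1a2 (0.91), and for Prelp Boc (0.93) and Abi3bp (0.91). For Scx the highest value was 0.69 (C030014I23Rik).

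Related genes were counted by list. Over all genes tested, 18.9% were lower and 19.1% higher in 9mTSCmKO than in 9mCON, 6.82% and 5.03% in 9mCON+RM than in 9mCON, and 18.3% and 19.1% at 9 than at 3 months in TSCmKO. Of 9 tested leucine-rich proteoglycans outside the 10 genes, 6 were lower in 9mTSCmKO than in 9mCON, 3 were lower in 9mCON+RM and 5 were lower at 9 than at 3 months in TSCmKO, with 0 higher in each. Kera, which encodes keratocan, had log2 fold changes of -2.17, -2.64 and -2.94 in these comparisons (SE 0.57, 0.62 and 0.56, edgeR adjusted p = 0.00274, 0.00424 and 0.000115). Ogn had log2 fold changes of -1.49, -1.23 and -1.0 (edgeR adjusted p = 0.000561, 0.0125 and 0.0174). Of 13 other tendon genes, 6 were lower in 9mCON+RM than in 9mCON and 0 higher, among them Col14a1, a fibril-associated collagen (log2 fold change -2.50, adjusted p = 0.000203), and Tnc (-2.03, adjusted p = 0.0134). Between genotypes at 9 months 2 of the 13 were lower and 1 was higher, and with age in TSCmKO 6 were lower and 1 higher. All 3 other thrombospondins, Thbs1, Thbs2 and Thbs3, were lower in 9mCON+RM than in 9mCON, 2 were lower between genotypes at 9 months and 2 with age in TSCmKO. Without 9mCON replicate 5, the counts between genotypes at 9 months were 5 lower proteoglycans, 0 lower and 2 higher tendon genes and 0 thrombospondins. In 9mCON+RM against 9mCON they were 2, 3 and 2, all lower. Kera still passed in both (log2 fold change -1.61, adjusted p = 0.0303, and -2.10, adjusted p = 0.0269), as did Col14a1 in 9mCON+RM (-2.17, adjusted p = 0.00119), while Tnc did not (-1.38, adjusted p = 0.1003).

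Of 23 collagen genes and genes of fibril assembly, 17 were lower in 9mCON+RM than in 9mCON, among them Col1a1 at 45.1 ± 26.2 CPM against 182 ± 89.5 CPM (SD, n = 5 each) and Col3a1 at 54.7 ± 31.2 against 184 ± 69.3 CPM. Between genotypes at 9 months 15 were lower and 2 higher, and the lysyl oxidase gene Lox, whose product cross-links collagen, was higher, at 46.3 ± 14.6 CPM in 9mTSCmKO against 14.9 ± 8.05 CPM in 9mCON (log2 fold change 1.63 ± 0.30 SE, edgeR adjusted p = 3.54e-05). With age in TSCmKO 17 were lower. In 3-month-old TSCmKO mice given rapamycin 6 were higher and 1 lower, where 10.6% of all genes tested were higher and 13% lower. Of 16 TGF-beta pathway genes, 4 were lower in 9mCON+RM and 0 higher, including Ctgf (log2 fold change -1.32, adjusted p = 0.00641), and between genotypes at 9 months 3 were lower and 4 higher, shares near those of all genes tested. With age in TSCmKO 7 of the 16 were lower and 1 higher. Of 11 matrix proteases and inhibitors, 5 were lower in 9mCON+RM, with Mmp2 and Mmp14 lower by 1.45 and 1.44 on the log2 scale, 3 were lower and 3 higher between genotypes at 9 months, and 3 were lower and 1 higher with age in TSCmKO. Without 9mCON replicate 5, 13 collagen and fibril genes were lower in 9mCON+RM, and 9 were lower and 2 higher between genotypes at 9 months, with Lox at a log2 fold change of 2.05 (adjusted p = 9.15e-07). The TGF-beta genes were then 3 lower and 1 higher in 9mCON+RM and 1 lower and 4 higher between genotypes, and the proteases 4 lower in 9mCON+RM and 2 lower and 2 higher between genotypes. Over all genes tested in that fit, 5.75% were lower and 5.27% higher in 9mCON+RM, and 15.1% were lower and 18.2% higher between genotypes.

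Of 10 markers of resident fibroblasts, 9 were lower in 9mCON+RM than in 9mCON, 8 were lower in 9mTSCmKO than in 9mCON, and 8 were lower with age in TSCmKO, with 0 higher in each. Their summed level was 673 to 1262 CPM in 9mCON, 171 to 560 CPM in 9mCON+RM, 222 to 491 CPM in 9mTSCmKO and 274 to 546 CPM in 9mTSCmKO+RM. At 3 months it was 720 to 1309 CPM in 3mCON, 724 to 1616 CPM in 3mCON+RM, 683 to 1002 CPM in 3mTSCmKO and 849 to 1340 CPM in 3mTSCmKO+RM. By this sum 9mCON replicate 5 was the highest library of its group and 3mCON+RM replicate 2 the lowest. Without 9mCON replicate 5, 8 markers were lower in 9mCON+RM and 8 in 9mTSCmKO. Between both ages of controls 0 of the 10 markers passed with edgeR. The part of fibroblast content in the results on the 10 genes was not tested.

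Other cell types were covered by shorter lists. Cartilage and bone markers were near 0: Acan, Bglap and Sp7 had 0 counts in 25, 31 and 24 of 40 libraries, just 2 of 8 markers were expressed highly enough to be tested, and the summed level was 0.939 to 10.3 CPM over all libraries. Of the 2 tested, 1 was lower in 9mCON+RM than in 9mCON, 1 was lower between genotypes at 9 months and 0 passed with age in TSCmKO. Of 6 endothelial markers, 0 passed in 9mCON+RM against 9mCON, 2 were lower between genotypes at 9 months and 4 were lower with age in TSCmKO. Of 5 macrophage markers, 4 were lower in 9mCON+RM than in 9mCON, with and without 9mCON replicate 5, among them Csf1r at 3.47 ± 1.94 CPM against 13.5 ± 8.12 CPM (SD, n = 5 each). Their summed level was 5.4 to 19.3 CPM in 9mCON+RM and 22.9 to 77.3 CPM in 9mCON, with no overlap, and its part in the results on the 10 genes was not tested. In 9mTSCmKO it was 22.8 to 46.0 CPM, where 1 marker was higher than in 9mCON, and with age in TSCmKO 1 was higher and 1 lower. The sixth listed marker, Itgam, was left out because its symbol stands on 2 gene identifiers. In 9mCON+RM against 9mCON, 0 of 6 smooth muscle and pericyte markers, 1 of 6 Schwann cell markers (lower), 0 of 6 adipocyte markers and 0 of 5 satellite cell markers passed. Between genotypes at 9 months those counts were 3, 2, 2 and 0, all lower, and with age in TSCmKO they were 2 lower, 1 higher, 5 lower and 1 lower. Of 10 myofiber markers 1 was higher in 9mCON+RM, 4 were lower in 9mTSCmKO against 9mCON and 3 were lower with age in TSCmKO. Without 9mCON replicate 5, 2 smooth muscle markers were lower and 1 higher between genotypes at 9 months, and 1 endothelial, 1 Schwann cell, 1 adipocyte, 3 myofiber and 1 cartilage marker were lower. In 9mCON+RM, 1 myofiber marker was then lower and 2 higher, and the counts of the endothelial, smooth muscle, Schwann cell, adipocyte, satellite cell and cartilage lists were as with all libraries. The myofiber markers summed to at least 120900 CPM in every library, above that of every other list.

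**Figure D4:**
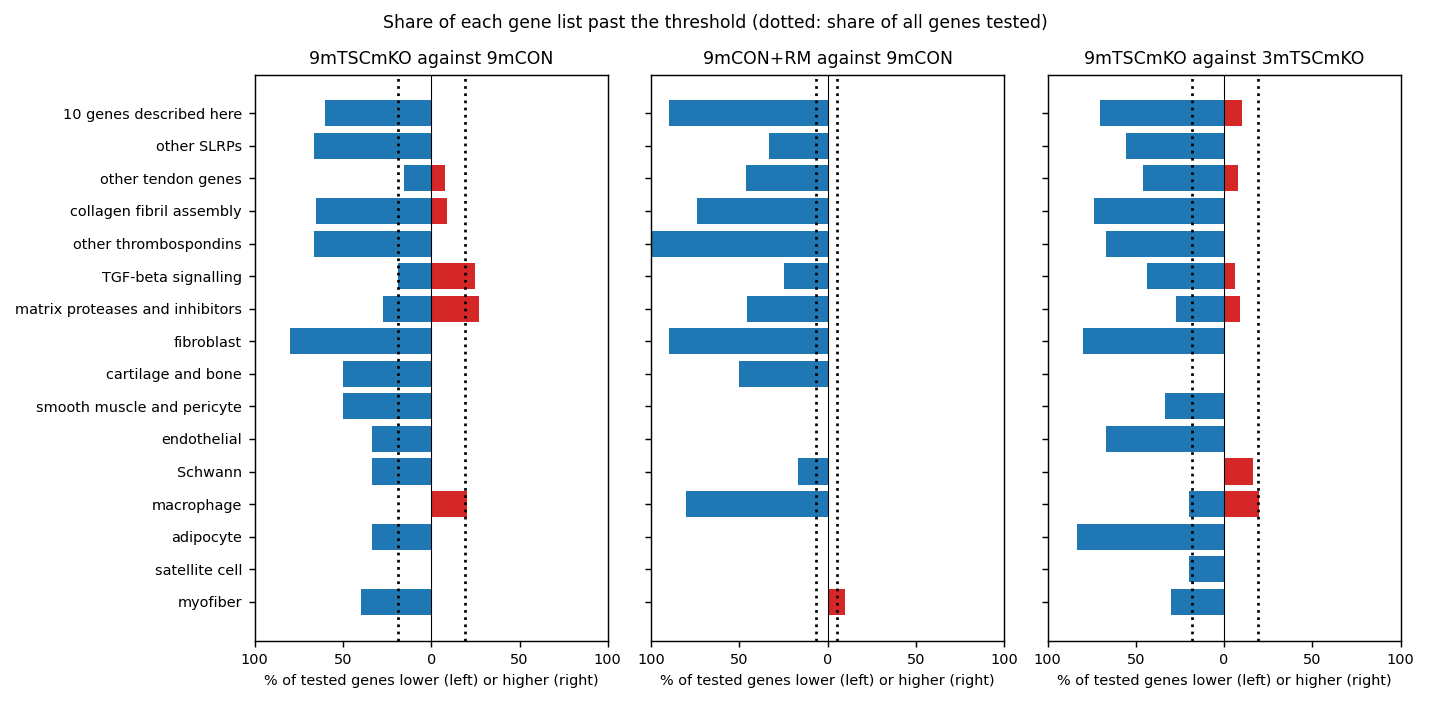
Share of the tested genes of each list that were lower (blue, left) or higher (red, right) at an adjusted p under 0.05, in 3 comparisons, with the shares of all 13543 tested genes as dotted lines. For rapamycin in 9-month-old controls the bar of the 10 genes (9 lower) stands beside fibroblast markers (9 of 10) and macrophage markers (4 of 5). Collagen fibril assembly (17 of 23) and the other thrombospondins (3 of 3) are also low. Endothelial, smooth muscle, adipocyte and satellite cell markers have no bar. Lists hold from 2 to 23 tested genes, so that single genes move the shorter bars.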

How the data were processed

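Poly(A) RNA was isolated from whole EDL muscle and sequenced as stranded single-end libraries. Per the study's methods and the submitters' processing notes, the authors trimmed reads with cutadapt 1.9.1, assigned them with kallisto 0.43.1 to Ensembl transcripts of GRCm38 and shared a read equally among the transcripts it hit. The deposited tables hold the authors' estimated counts per gene, whole numbers as deposited, and TPM values that the authors derived from the counts and transcript lengths. Groups were read from the labels, which covered all value columns.

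The 10 genes were selected by symbol. Counts were tested in R 4.3.3 with edgeR 4.0.16 (TMM scaling, robust quasi-likelihood F-tests, 1 mean for each of the 8 groups fitted to all 40 libraries, 14 contrasts, 4 of them interactions). Genes needed at least 1 CPM in 5 or more libraries. P-values were two-sided and adjusted by the Benjamini-Hochberg method over 13543 genes, and standard errors came from the F-statistics. Alternatives were RLE and upper-quartile scaling, no filter, DESeq2 1.42.0, limma 3.58.1 on log2(TPM + 1) and log2(TPM + 0.1), fits of the compared groups alone, replicate and insert size terms and leaving out each library. The analysis was run on simulated data with independent genes. That simulation held neither the spread shared among genes nor the single libraries standing apart that are described here. Correlations used log2(CPM + 0.5). Up to 3 genes of each list were named by size of fold change, given a call and an average level of 5 CPM or more over all libraries. The genes, the lists and the tests were chosen with earlier results of these data known. Replicates correlated at r = 0.919 to 0.991 across genes and their variance was 10.5 to 149 times that of counting alone. Per the study's figure legends, a library stands for the muscle of a single mouse, with 5 mice in a group. Listed genes whose symbol stood on more than 1 gene identifier (1, Itgam) were left out of the lists.

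For Comp, 9mTSCmKO+RM replicate 1 had 0 counts, which allows up to 3 counts or 0.235 CPM, for counting error only.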

Additional observations from a re-analysis of the deposited data

Results flagged for a closer look

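The level of each of the 10 genes was examined in each group of 5 libraries for a single library far from the rest (Dixon's test, critical value 0.71). Chance gives about 1 in 20 for normally distributed values, but the test was run on CPM without a log scale, where the rate can differ. Of 80 combinations, 19 passed, and they came from 8 libraries. Since the genes vary together, these are not separate events.

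In 9mCON, replicate 5 was far above the other libraries for Fmod (277 CPM), Chad (46.1 CPM), Tnmd (12.6 CPM), Comp (19.8 CPM), Thbs4 (166 CPM) and Prelp (76.8 CPM). In 3mCON+RM, replicate 2 was far below the others for Chad (5.61 CPM), Comp (1.39 CPM), Dcn (461 CPM) and Prelp (31.8 CPM). In 9mCON+RM, replicate 3 was high for Chad (3.47 CPM), Tnmd (1.74 CPM) and Thbs4 (36.8 CPM), and in 9mTSCmKO+RM, replicate 3 was high for Fmod (30.7 CPM) and Chad (3.54 CPM). Single cases were Comp in 9mTSCmKO replicate 1 (2.81 CPM, high), Scx in 9mTSCmKO replicate 3 (7.71 CPM, high), Bgn in 3mTSCmKO replicate 2 (94.3 CPM, low) and Bgn in 3mTSCmKO+RM replicate 1 (103.5 CPM, low).

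By tests of the difference between effects with edgeR, the rapamycin effect on Scx differed between genotypes at 3 months (log2 difference 1.96, adjusted p = 0.00367), and that on Dcn differed between ages in controls (log2 difference -1.52, adjusted p = 0.0466). The call on Dcn was near the threshold and ended in 23 of 40 fits that left out 1 library.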

How the results depend on the processing

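There were 29 changes of single genes past the threshold. Under 50 alternative fits each, none reversed its direction, 1371 of 1450 values stayed past the threshold and 79 did not. Of these values, 1160 came from leaving out 1 library, mostly a library outside the compared groups. Such fits bear on a comparison just through the shared spread, the scaling, the filter and the adjustment. The count of values that stayed thus says less than its size. Leaving out 1 library moved the number of the 10 genes past the threshold to between 1 and 6 for genotype at 9 months, 0 and 1 at 3 months, 0 and 1 for genotype under rapamycin at either age, 6 and 9 for rapamycin in CON at 9 months, 1 and 2 in TSCmKO at 9 months, 0 and 6 for age in CON, 7 and 9 for age in TSCmKO, 0 and 1 for genotype by age and 0 and 6 for rapamycin by age in CON. Limma on TPM with either pseudocount gave 2 for genotype at 9 months and 1 for genotype under rapamycin at 9 months. DESeq2 gave 2 for age in CON, 1 for genotype under rapamycin and 1 for rapamycin by genotype at 9 months and 5 for rapamycin by age in CON. Upper-quartile scaling gave 1 for genotype under rapamycin at 9 months. Fits of the compared groups alone, where the spread rests on fewer libraries, gave 5 for rapamycin in CON at 9 months, 3 and 2 for rapamycin in TSCmKO at 3 and 9 months and 0 for rapamycin by age in CON, and tested 7 of the 10 genes for genotype under rapamycin at 9 months and 9 for rapamycin in TSCmKO at 9 months. Without the filter, rapamycin by age in CON gave 0, and with insert size as a term 2 (9mTSCmKO+RM replicate 5, which has no insert size, was dropped). Without 3mCON replicate 5, 3mCON+RM replicate 2 and 9mCON replicate 5 together, an alternative chosen after seeing the data, the counts were 2 for genotype at 9 months and 2 at 3 months, 7 for age in CON, 1 for genotype by age, 2 for rapamycin in TSCmKO at 3 months and 2 at 9 months and 0 for rapamycin by age in CON. Apart from the filters and fewer libraries named, the cause was not tested.

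With the replicate number as a block, the counts were 6 for genotype at 9 months, 9 for rapamycin in CON at 9 months and 8 for age in TSCmKO, and the others were unchanged as well. Libraries with the same number were treated as unpaired in the main fit. Their deviations correlated at r = -0.327 to 0.347 (median -0.006), and 29 of 140 pairs exceeded 0.1, which cannot exclude a pairing. Chad, Tnmd and Comp had as few as 4, 4 and 0 counts in 9-month libraries, which limits the precision of their fold changes.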
